A study of Mus musculus with 18 samples.

Results

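Neural stem and immature neuron markers were followed in the adult mouse dentate gyrus as a set of 9 genes: Sox2, Nes, Hopx, Eomes, Neurog2, Neurod1, Dcx, Sox11 and Sox4. They were found by exact symbol among the 24015 rows of the authors' deposited tables, and all 9 had a row with an adjusted p in each of the 3 tables. The dentate gyrus of C57BL/6 mice aged 8 weeks was dissected, and each of the 18 RNA-seq libraries came from its own animal. The 6 groups of 3 libraries were EYFP_OE and cFos_OE, which overexpressed the reporter EYFP (a yellow fluorescent protein) and c-Fos, and 4 hairpin groups. Of these, shRNA-Ctrl_E0 and shRNA-Ctrl_E1 carried a control short hairpin RNA, and the hairpin named for c-Fos was in shRNA-cFos_E0 and shRNA-cFos_E1. The labels do not define E0 and E1. The names of the deposited comparisons call the E0 side sham, and the study is described as one of neuronal activation. How the constructs were delivered, and which cells took them up, is not given in the sources used here. The 3 comparisons set E1 against E0 once under each hairpin, and cFos_OE against EYFP_OE, and they share no library.

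The dentate gyrus keeps making neurons in adult life. Radial glia-like stem cells carry Sox2, a transcription factor of neural precursors, Nes, the intermediate filament nestin, and Hopx, a homeodomain protein of quiescent stem cells. Their daughters pass through intermediate progenitors with Eomes (Tbr2) and the proneural factor Neurog2, then through neuroblasts and immature granule neurons with the bHLH factor Neurod1, the microtubule protein doublecortin (Dcx) and the SoxC factors Sox11 and Sox4. Several of the 9 are not private to these cells: astrocytes also make Sox2 and Hopx, vessels and reactive astrocytes can make Nes, and granule neurons keep some Neurod1. In RNA from whole tissue, a change in the number of cells of a type and a change in RNA per cell cannot be told apart.

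The promoters shown are those of Sox11 and Neurod1, which rose together at E1 with either hairpin, and of Sox4, the paralog of Sox11, which fell there. Each is the 250 bases before the RefSeq start on build GRCm38.p6, 5′ to 3′ on the gene's strand, with the E-box letters CANNTG, the core bound by bHLH factors, in capitals. Sox11 lies at chr12:27342719-27342968 (minus strand), Neurod1 at chr2:79456637-79456886 (minus strand) and Sox4 at chr13:28953700-28953949 (minus strand).
Sox11: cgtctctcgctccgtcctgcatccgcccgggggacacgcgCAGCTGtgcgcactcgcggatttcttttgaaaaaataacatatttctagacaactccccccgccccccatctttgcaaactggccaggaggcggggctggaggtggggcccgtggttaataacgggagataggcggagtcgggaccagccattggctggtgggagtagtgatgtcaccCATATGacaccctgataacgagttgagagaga
Neurod1: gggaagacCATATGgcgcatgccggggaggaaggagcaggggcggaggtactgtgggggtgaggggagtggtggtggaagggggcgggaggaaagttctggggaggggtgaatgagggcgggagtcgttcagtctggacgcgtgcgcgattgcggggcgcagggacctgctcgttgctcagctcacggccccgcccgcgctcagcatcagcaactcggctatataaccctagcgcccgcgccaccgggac
Sox4: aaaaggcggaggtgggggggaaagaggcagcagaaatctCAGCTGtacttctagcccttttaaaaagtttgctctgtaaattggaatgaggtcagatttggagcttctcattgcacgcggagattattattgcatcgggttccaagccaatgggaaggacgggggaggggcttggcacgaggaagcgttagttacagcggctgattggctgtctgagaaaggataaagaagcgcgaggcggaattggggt
The Sox11 stretch held 2 E-box matches, CAGCTG at 210 bases and CATATG at 32 bases before the start. The bases that follow the RefSeq start were found in a GENCODE M21 transcript for Neurod1 and Sox4 but not for Sox11, so the distances of Sox11 hold for the RefSeq start alone. Neurod1 held 1, CATATG at 242 bases before the start, and Sox4 held 1, CAGCTG at 211 bases before the start. Across all 32851 promoter windows of the same length, 66.2% held CANNTG in the 250 bases before the start, against 4 of the 11 windows of the 9 markers (Hopx and Dcx have 2 each). AP-1 is the dimer that c-Fos forms with Jun proteins, and its letters TGANTCA, searched on both strands, were in 0 of the 11 windows and in 6.75% of all windows. The CRE letters TGACGTCA, a motif of activity-induced promoters added to the search afterwards, were in 0 of the 11 and in 1.55% of all. The lack of a match says only that these letters are not in these windows.

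The genes also differ in structure. Sox2, Sox11 and Sox4 have 1 exon in their longest coding transcript (GENCODE M21), as do 7.5% of coding genes, while Neurog2 and Neurod1 have 2, Hopx 3, Nes 4, Eomes 6 and Dcx 7. Promoter GC content ran from 41.6% for Dcx to 72.0% for Sox2, around a median of 52.4% over all windows. Sox2 overlaps Sox2ot on the same strand, and Neurod1 overlaps Cerkl on the same strand. Hopx, Eomes, Neurod1 and Sox4 overlap a gene on the opposite strand in that annotation. The strand setting of the counting is not given in the sources used here, so reads of such pairs may not be told apart.

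The tables hold no values per library, so depth per library is unknown and precision is that of the authors' standard errors. Fos, the targeted gene, had a log2 fold change of 3.36 ± 0.14 (SE) with shRNA-Ctrl, 2.33 ± 0.15 with shRNA-cFos and 3.34 ± 0.20 with overexpression in the authors' deposited tables. The last value is strongly shrunken, and is 6.02 ± 0.37 (uncertain) with the shrinkage removed. Of 15 immediate early genes, the first to answer activity, 15 rose at E1 with shRNA-Ctrl and 14 with shRNA-cFos, while 3 rose and 8 fell with overexpression. Fos, the overexpressed gene itself, is among these 15 and among the 3 that rose with overexpression. Granule neuron markers were detected: their mean normalized count in the authors' deposited tables lay between 1762 and 2741 for Prox1 and between 2480 and 4071 for Calb1. These counts do not show how pure the dissection was.

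Levels of the 9 markers differed widely. Per kilobase of GENCODE M21 exon, Hopx was highest, at 1072, 877 and 910 mean normalized counts in the shRNA-Ctrl, shRNA-cFos and overexpression tables. Neurod1 (432, 249 and 268) and Sox2 (393, 316 and 356) followed on the same per-kilobase scale, then Sox11 (149, 123 and 125) and Sox4 (101, 79.9 and 83.7). Nes (54.7, 52.5 and 24.6) and Dcx (41.1, 31.5 and 48.5 per kilobase) were lower. The intermediate progenitor genes were far below, Eomes at 10.4, 5.91 and 13.6 and Neurog2 at 9.41, 6.64 and 10.6 per kilobase. The tables were normalized separately, so these per-kilobase levels are ordered within a table only, and they carry no error.

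With shRNA-Ctrl, 2 of the 9 markers rose at E1 (Sox11 and Neurod1) and 2 fell (Nes and Sox4) in the authors' deposited table, at an adjusted p under 0.05. That share stands against 33.0% of all tested genes called in this comparison (16.8% higher, 16.2% lower). With shRNA-cFos, 2 rose (again Sox11 and Neurod1) and 3 fell (Nes, Sox4 and Sox2) in the authors' deposited table, against 28.1% of all tested genes called (16.3% higher, 11.7% lower). With c-Fos overexpression, 2 rose (Sox11 and Dcx) and 1 fell (Sox2) in the authors' deposited table, against 13.0% called (7.10% higher, 5.86% lower). The median log2 fold change of the 9 was -0.04, 0.14 and 0.13 in these 3 tables, beside 0.01, -0.00 and -0.01 for all tested genes. In each table the markers that passed lay on both sides of 0.

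**Figure D1:**
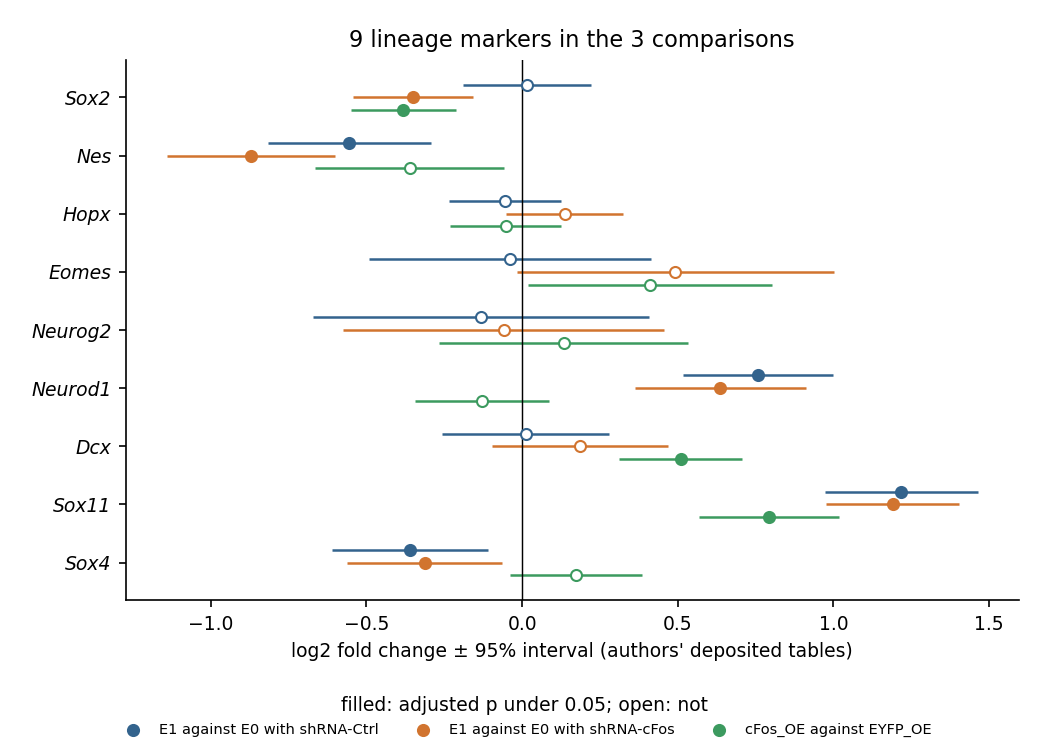
Log2 fold change of each marker (x axis) with its 95% interval, for the 3 comparisons by colour, from the authors' deposited tables; filled points passed an adjusted p of 0.05. Sox11 sits to the right of 0 in all 3 comparisons, Nes to the left in all 3, and Hopx close to 0 throughout.

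Among the stem cell markers, Nes fell at E1 with either hairpin. Its estimated level went from 402 to 268 normalized counts with shRNA-Ctrl and from 423 to 220 with shRNA-cFos (group levels here and below were derived from the authors' deposited tables after removal of the fold change shrinkage, so they differ slightly more than the printed fold changes). The log2 fold change in the authors' deposited table was -0.55 ± 0.13 with shRNA-Ctrl (DESeq2 adjusted p = 0.00024), a level 1.47-fold lower. It was -0.87 ± 0.14 with shRNA-cFos in the authors' deposited table (DESeq2 adjusted p = 8.2e-09), a level 1.83-fold lower. Only 0.598% of tested genes lay below Nes in the shRNA-cFos table, and 4.90% in the shRNA-Ctrl table. With overexpression the estimated level was 173 with EYFP_OE and 128 with cFos_OE, and the change of -0.36 ± 0.15 (log2) that the authors' deposited table gives did not pass (DESeq2 adjusted p = 0.12, 95% interval -0.66 to -0.06).

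Sox2 held a different pattern, lower with shRNA-cFos at E1 and with c-Fos overexpression. With shRNA-Ctrl its estimated level was 805 at E0 and 814 at E1, and the authors' deposited table gives a log2 fold change of 0.02 ± 0.11 (95% interval -0.19 to 0.22). With shRNA-cFos the estimate was 731 at E0 and 568 at E1, and Sox2 fell by 0.35 ± 0.10 on the log2 scale in the authors' deposited table (DESeq2 adjusted p = 0.0026). The estimate was 832 with EYFP_OE and 631 with cFos_OE, and the log2 fold change in the authors' deposited table was -0.38 ± 0.09 (DESeq2 adjusted p = 0.00019), with 3.82% of tested genes lower. These are modest changes, 1.28-fold and 1.30-fold. Sox2ot, the long noncoding RNA that overlaps Sox2, had log2 fold changes of 0.38 ± 0.13, -0.24 ± 0.15 and -0.46 ± 0.15 in the authors' deposited tables (shRNA-Ctrl, shRNA-cFos, overexpression). Of these the first was a rise and the last a fall past the threshold (DESeq2 adjusted p = 0.017 and 0.025). Sox2ot was chosen after its overlap with Sox2 was seen.

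Hopx, the marker of quiescent stem cells and the most abundant of the 9 per length, did not pass in any comparison. Estimated levels were 1658 and 1593 at E0 and E1 with shRNA-Ctrl, 1264 and 1395 with shRNA-cFos, and 1406 and 1352 with EYFP_OE and cFos_OE. The 95% intervals of the log2 fold change ran from -0.24 to 0.12, from -0.05 to 0.32 and from -0.23 to 0.12 in the authors' deposited tables. The upper fold of these intervals was at most 1.25 and the lower at least 0.849.

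The intermediate progenitor genes were scarce, and their intervals are wide. Eomes had a mean normalized count of 38.6, 21.8 and 50.1 in the authors' deposited tables (shRNA-Ctrl, shRNA-cFos, overexpression), and Neurog2 had 21.0, 14.8 and 23.6. For Eomes the log2 fold change was -0.04 ± 0.23 with shRNA-Ctrl, 0.49 ± 0.26 with shRNA-cFos and 0.41 ± 0.20 with overexpression in the authors' deposited tables, and none passed (DESeq2 adjusted p = 0.92, 0.15 and 0.19). The unadjusted 95% interval of Eomes with overexpression, 0.02 to 0.80, lay just above 0. Neurog2 gave -0.13 ± 0.28, -0.06 ± 0.26 and 0.13 ± 0.20 in the authors' deposited tables, with intervals that reach from a fold of 0.628 to 1.45. With the shrinkage removed, the standard errors of Neurog2 were 0.41, 0.48 and 0.41 and its values are uncertain, so the range that these data leave for it is wider still.

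Neurod1, which drives progenitors to differentiate as granule neurons, rose at E1 with either hairpin. Its estimated level went from 862 to 1495 with shRNA-Ctrl and from 521 to 839 with shRNA-cFos. The authors' deposited table gives a rise of 0.76 ± 0.12 on the log2 scale under shRNA-Ctrl (1.69-fold, DESeq2 adjusted p = 1.6e-08). Under shRNA-cFos the authors' deposited table gives 0.64 ± 0.14 (1.55-fold, DESeq2 adjusted p = 6.7e-05). With overexpression the estimate was 767 with EYFP_OE and 696 with cFos_OE, and the change of -0.13 ± 0.11 (log2) that the authors' deposited table gives did not pass (95% interval -0.35 to 0.09).

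Dcx, the usual marker of neuroblasts and young neurons, rose with c-Fos overexpression. Its estimated level was 365 with EYFP_OE and 532 with cFos_OE, and its log2 fold change was 0.51 ± 0.10 in the authors' deposited table (1.42-fold, DESeq2 adjusted p = 1.2e-05), with 4.11% of tested genes higher. The E1 values did not pass: 378 at E0 and 382 at E1 with shRNA-Ctrl, and 271 and 312 with shRNA-cFos. The authors' deposited tables give log2 fold changes of 0.01 ± 0.14 and 0.19 ± 0.14 for them. The 95% intervals of these E1 values ran from -0.26 to 0.28 and from -0.10 to 0.47, the latter up to 1.38-fold.

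Sox11 rose in all 3 comparisons and was the most changed of the 9 in each. The estimated level was 724 at E0 and 1758 at E1 with shRNA-Ctrl, 606 and 1438 with shRNA-cFos, and 737 and 1343 with EYFP_OE and cFos_OE. Under shRNA-Ctrl the authors' deposited table gives 1.22 ± 0.13 on the log2 scale (2.33-fold, DESeq2 adjusted p = 1.5e-20). Under shRNA-cFos the authors' deposited table gives 1.19 ± 0.11 (2.28-fold, DESeq2 adjusted p = 9.2e-26), and for overexpression 0.79 ± 0.11 (1.73-fold, DESeq2 adjusted p = 4.3e-10). Sox11 ranked 192 from the top of 15675 tested genes with shRNA-Ctrl, 127 of 14388 with shRNA-cFos and 241 of 15827 with overexpression. Of 14341 genes tested in all 3 tables, 116 (0.809%) rose in all of them and 28 (0.195%) rose by at least 1.5-fold in all; Sox11 was the 1 marker among them.

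Sox4, the SoxC paralog that is often co-expressed with Sox11 in immature neurons, did not follow it. At E1 the estimated level of Sox4 went from 545 to 419 with shRNA-Ctrl and from 427 to 339 with shRNA-cFos. The log2 fold change was -0.36 ± 0.13 with shRNA-Ctrl (DESeq2 adjusted p = 0.018) and -0.31 ± 0.13 with shRNA-cFos (DESeq2 adjusted p = 0.049) in the authors' deposited tables. The second value lies at the threshold and is lost with an adjustment over every gene that has a p (adjusted p = 0.064) and with centring on the median gene (adjusted p = 0.051). With overexpression the estimate was 376 with EYFP_OE and 427 with cFos_OE, and the change of 0.17 ± 0.11 (log2) that the authors' deposited table gives did not pass (DESeq2 adjusted p = 0.37).

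**Figure D2:**
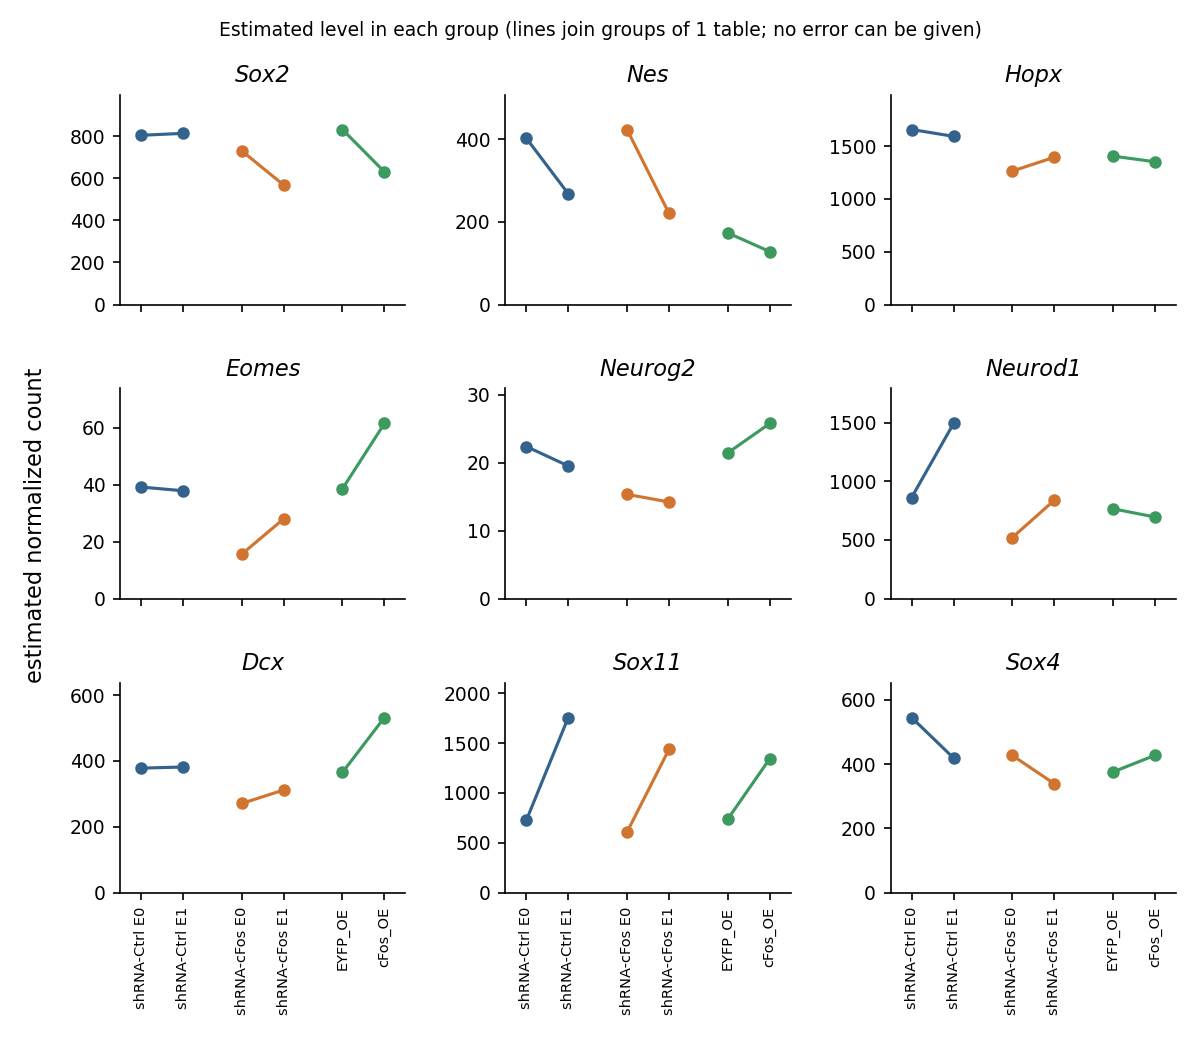
Estimated normalized counts (y axis, from 0) of each marker in the 6 groups, derived from mean normalized counts and fold changes in the authors' deposited tables; lines join the groups of a table, and no error can be given. Sox11 climbs in each pair, Neurod1 climbs in the hairpin pairs, and Nes and Sox4 drop in the hairpin pairs.

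Levels of the hairpin groups were also set on 1 scale by shifting the shRNA-cFos table until the median gene of 12406 had the same E0 level (a log2 shift of -0.43), with no error and no test. On that scale Sox11 stood at 724 and 818 at E0 and at 1758 and 1940 at E1 with shRNA-Ctrl and shRNA-cFos, so E1 levels lay above E0 levels across arms as well. Nes stood at 402 and 571 at E0 and at 268 and 297 at E1, with the highest of its 4 values in shRNA-cFos_E0. Sox2 stood at 805 and 986 at E0 and at 814 and 766 at E1, its highest value being shRNA-cFos_E0. Neurod1 was lower with shRNA-cFos at each stage, 862 against 702 at E0 and 1495 against 1132 at E1.

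The question whether responses differed between comparisons was tested as the difference of 2 log2 fold changes over their combined standard error. The difference between the E1 responses passed for 1 of the 9 markers, Sox2, against 23.8% of 14386 genes (12.9% higher, 11.0% lower). The 2 responses of Sox2 in the authors' deposited tables differed by -0.37 ± 0.14, lower under shRNA-cFos (normal test, Benjamini-Hochberg adjusted p = 0.047). That call sits at the threshold: it was lost with an adjustment over every gene with a p (adjusted p = 0.061) and with centring on the median gene (adjusted p = 0.054). The E1 response of Sox11 differed by -0.03 ± 0.17 between the hairpins (95% interval -0.35 to 0.30) and that of Neurod1 by -0.12 ± 0.19 (-0.49 to 0.24), computed from the authors' deposited tables. The difference for Nes, -0.32 ± 0.19, did not pass (Benjamini-Hochberg adjusted p = 0.24), and neither did those of Sox4 (0.05 ± 0.18), Dcx (0.17 ± 0.20), Hopx (0.19 ± 0.13), Eomes (0.53 ± 0.35) or Neurog2 (0.07 ± 0.38). Fos itself had a lower E1 response with shRNA-cFos, by -1.03 ± 0.20. On the common scale of the hairpin groups Fos stood at 178 and 230 at E0 and at 2126 and 1348 at E1 with shRNA-Ctrl and shRNA-cFos, so it was the higher at E0 and the lower at E1 in the groups labelled shRNA-cFos, with no error for these levels.

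Comparisons of the overexpression effect with the E1 responses were added after the data were seen, and they set unlike contrasts side by side. Against the E1 response with shRNA-Ctrl, the overexpression effect was lower for Neurod1 (-0.89 ± 0.17) and Sox2 (-0.40 ± 0.14) and higher for Sox4 (0.53 ± 0.17) and Dcx (0.50 ± 0.17), computed from the authors' deposited tables. Their Benjamini-Hochberg adjusted p were 2.3e-06, 0.021, 0.011 and 0.022, and 20.3% of 15514 genes were called (10.0% higher, 10.3% lower). Sox11 lay at -0.43 ± 0.17 and just missed (adjusted p = 0.057); it passed with genes of mean at least 50 (0.049). Against the E1 response with shRNA-cFos, it was lower for Neurod1 (-0.77 ± 0.18) and Sox11 (-0.40 ± 0.16) and higher for Sox4 (0.49 ± 0.17), computed from the authors' deposited tables. Their Benjamini-Hochberg adjusted p were 0.00019, 0.046 and 0.018, and 26.3% of 14343 genes were called (11.3% higher, 15.0% lower). The Sox11 call was lost with the shrinkage removed (adjusted p = 0.084) and with an adjustment over every gene with a p (adjusted p = 0.058). Nes lay at 0.51 ± 0.21 and just missed (adjusted p = 0.051); it passed with genes of mean at least 50 (0.048) and with centring on the median gene (0.049). Neurod1 and Sox4 thus differed between overexpression and E1 with either hairpin, while Dcx did so against shRNA-Ctrl and missed against shRNA-cFos (0.32 ± 0.18, adjusted p = 0.17).

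**Figure D3:**
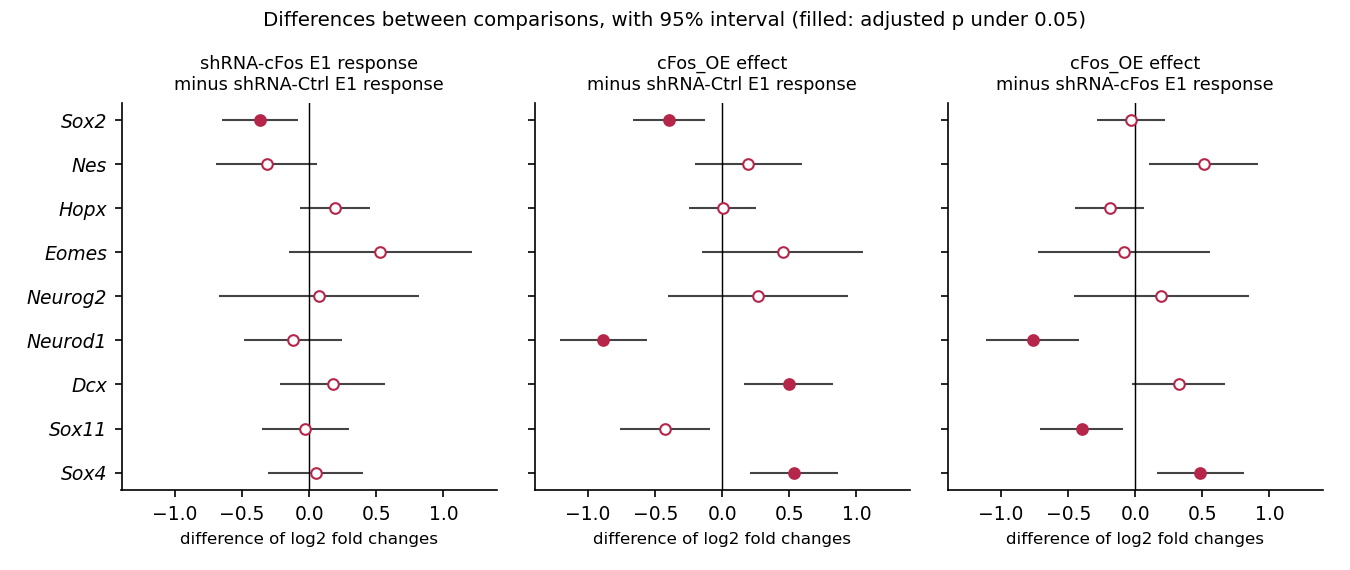
Differences between the log2 fold changes of 2 comparisons (x axis) with 95% intervals for the 9 markers; filled points passed an adjusted p of 0.05. Between the hairpins Sox2 alone is filled (-0.37), whereas against overexpression Neurod1 lies at -0.89 and -0.77.

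**Figure D4:**
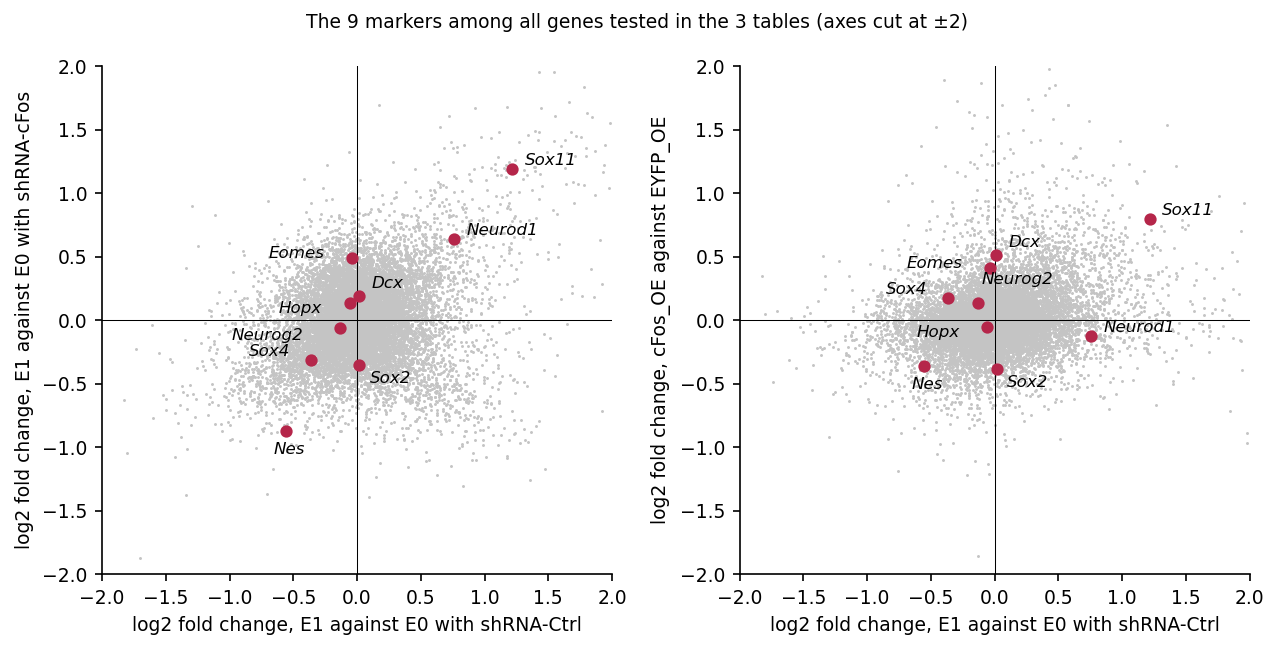
Each grey point is 1 of 14341 genes tested in all 3 tables, placed by its log2 fold change at E1 with shRNA-Ctrl (x axis) and with shRNA-cFos (left) or c-Fos overexpression (right); axes end at 2 in either direction, so genes beyond that are not drawn. Sox11 lies at the upper right edge of the cloud in both panels, and Neurod1 at the upper right on the left side alone.

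Other genes of the neurogenic lineage were counted from lists. Of all tested genes, 33.0%, 28.1% and 13.0% were called (shRNA-Ctrl, shRNA-cFos, overexpression), and the radial glia count with shRNA-Ctrl lies below that share. Of 18 other radial glia and quiescent stem cell genes, 2 rose and 3 fell under shRNA-Ctrl in the authors' deposited tables, 3 rose and 5 fell under shRNA-cFos, and overexpression raised 3 and lowered 2. Their median log2 fold changes were 0.10, -0.06 and -0.10, beside 0.01, -0.00 and -0.01 for all tested genes. Fabp7, the brain lipid binding protein of radial glia, had a log2 fold change of -0.58 ± 0.13 with shRNA-Ctrl in the authors' deposited table, and Vim, an intermediate filament like nestin, had 0.54 ± 0.18, so members of this list passed on both sides of 0. Pax6, a factor of neural precursors, had -0.64 ± 0.15 with shRNA-cFos, where the differentiation inhibitor Id4 had 0.68 ± 0.12 in the authors' deposited table. Sox9, the gliogenic factor that acts with Sox2 in stem cells and astrocytes, had 0.60 ± 0.10 with overexpression in the authors' deposited table, opposite in sign to Sox2. With shRNA-cFos it had -0.54 ± 0.11, of the same sign as Sox2 there. The members with the largest change in the overexpression table were the glial filament gene Gfap (0.86 ± 0.20) and Vim (0.85 ± 0.20), both higher.

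Of 18 genes of activated progenitors and the cell cycle, 7 rose and 2 fell under shRNA-Ctrl in the authors' deposited tables (median 0.24). Under shRNA-cFos 1 of 15 tested rose and 4 fell (-0.21), and overexpression raised 4 and lowered 2 (0.14). The shares of all tested genes called were 33.0%, 28.1% and 13.0% in the same order. Top2a, the topoisomerase of dividing cells, had log2 fold changes of 0.63 ± 0.20, -0.71 ± 0.21 and 0.89 ± 0.19 in the 3 authors' deposited tables. The antiproliferative gene Btg2, also an early answer to activity, had 2.49 ± 0.12 and 2.05 ± 0.12 at E1 in the authors' deposited tables. Insm1, a factor of the step from progenitor to neuroblast, had -0.82 ± 0.18 with overexpression in the authors' deposited table.

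Of 27 other immature neuron genes, 6 rose and 3 fell under shRNA-Ctrl in the authors' deposited tables (median -0.07). That count is near the 33.0% of all tested genes called there, and the share was 28.1% with shRNA-cFos and 13.0% with overexpression. Under shRNA-cFos 15 rose and 2 fell (0.26), and overexpression raised 7 and lowered 6 (0.08). The largest called changes with shRNA-Ctrl lay on both sides of 0, with Cd24a at 0.82 ± 0.15 and Bcl11b at -0.81 ± 0.09 in the authors' deposited table. Dpysl5, a collapsin response mediator of growing neurites, had 0.79 ± 0.12 and 1.32 ± 0.13 at E1 with shRNA-Ctrl and shRNA-cFos in the authors' deposited tables. Igfbpl1, which marks neuroblasts, had 0.60 ± 0.20 with shRNA-cFos and 0.79 ± 0.14 with overexpression in the authors' deposited tables, and the axon guidance gene Draxin had 0.65 ± 0.17 with overexpression. On the other side, Fxyd7 had -0.83 ± 0.12 and Neurod6 -0.73 ± 0.19 with overexpression in the authors' deposited table. Both were higher at E1 with shRNA-cFos, at 0.65 ± 0.14 and 0.52 ± 0.21. Neurod6 also stands in the list of pyramidal and mossy cells counted below. Neurod2, a gene of mature neurons too, is in the immature neuron list, so the counts of this list are not private to immature neurons. Mature granule neuron markers fell for 12 of 15 and rose for 1 with shRNA-Ctrl, rose for 7 and fell for 0 with shRNA-cFos, and fell for 7 and rose for 1 with overexpression in the authors' deposited tables. Their summed estimated level went from 42909 to 31844, from 21156 to 25974 and from 35563 to 30962 normalized counts, with 0 of 15 genes at 0. The median log2 fold changes of this list were -0.51, 0.23 and -0.34. The difference between the E1 responses passed for 12 of 15, all higher under shRNA-cFos, against 23.8% of 14386 genes (12.9% higher). Such a difference can come from unlike levels at E0 as well as at E1, and which holds for this list was not tested. C1ql2, a synaptic C1q-like protein of granule neurons, had -0.73 ± 0.21 under shRNA-Ctrl and 0.41 ± 0.11 under shRNA-cFos in the authors' deposited tables. Tdo2, a tryptophan-degrading enzyme made by mature granule cells, had -0.96 ± 0.15 under shRNA-Ctrl, and Ntng1, a netrin-G, had -0.80 ± 0.14 with overexpression in the authors' deposited tables. The part of this shift in the values of Neurod1, Dcx, Sox11 and Sox4 was not tested.

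**Figure D5:**
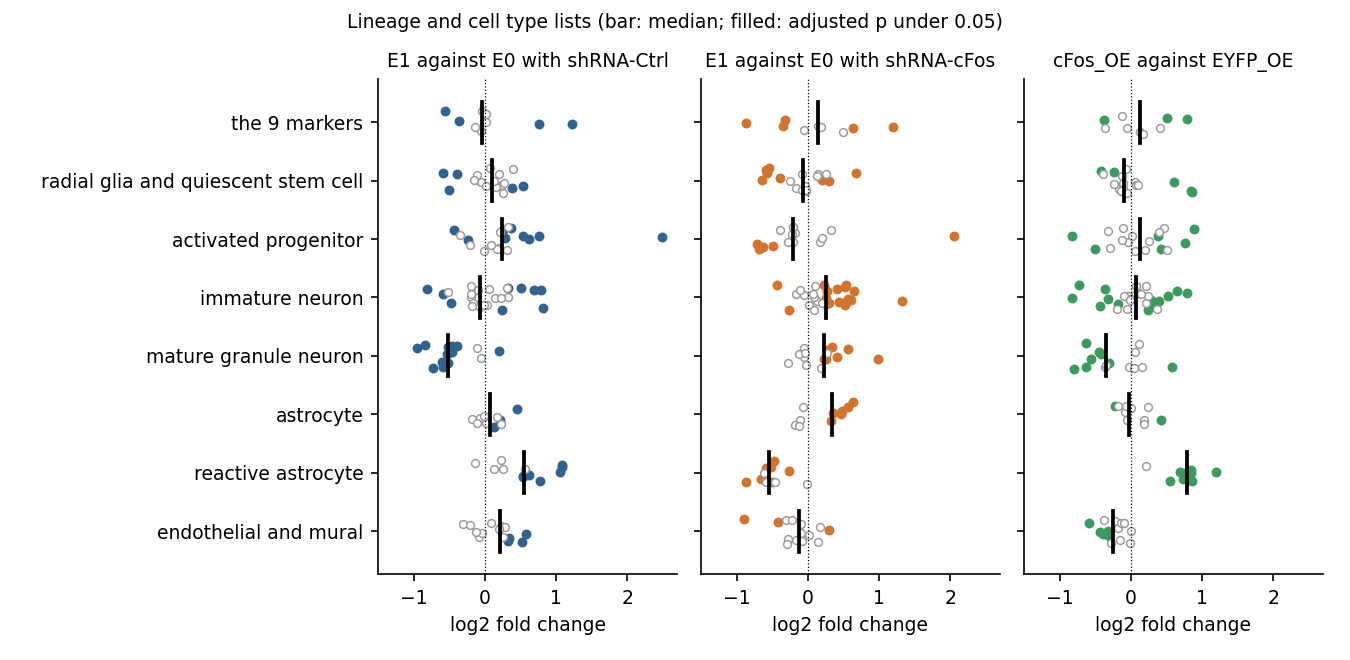
Log2 fold changes (x axis) of the 9 markers and of lists of lineage and cell type genes in the 3 comparisons; each point is a tested gene, filled at an adjusted p under 0.05, and the bar is the list's median. The medians of mature granule neuron markers lie at -0.51, 0.23 and -0.34, and those of reactive astrocyte markers at 0.55, -0.55 and 0.78.

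Markers of other cell types that make these genes were counted in the same tables, where 33.0%, 28.1% and 13.0% of all tested genes were called (shRNA-Ctrl, shRNA-cFos, overexpression). Reactive astrocyte markers, a source of Nes, rose for 7 of 12 with shRNA-Ctrl, fell for 8 of 12 with shRNA-cFos and rose for 10 of 11 tested with overexpression in the authors' deposited tables. Their summed estimated level went from 25373 to 32461, from 31563 to 20967 and from 13925 to 36588 normalized counts, and 0 of 12 were at 0. The highest gene of that list had a mean normalized count of 20323, 18698 and 20260 in the same order, so these sums rest largely on 1 gene. Nes fell at E1 with either hairpin, where the called genes of that list were higher with shRNA-Ctrl and lower with shRNA-cFos. Gfap and Vim stand both in that list and among the stem cell genes above. Endothelial and mural markers, the vessel source of Nes, rose for 4 of 14 with shRNA-Ctrl, rose for 1 and fell for 2 with shRNA-cFos, and fell for 5 with overexpression in the authors' deposited tables, with 0 of 14 at 0. Their summed level went from 4696 to 5608, from 4093 to 3730 and from 4509 to 3718.

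The endothelial counts with either hairpin, and the astrocyte count with shRNA-Ctrl, were near or below the share of all genes called. Astrocyte markers, whose cells also make Sox2 and Hopx, rose for 3 of 10 with shRNA-Ctrl and for 6 of 10 with shRNA-cFos, and rose for 1 and fell for 1 with overexpression in the authors' deposited tables. Their summed level went from 72607 to 71164, from 47839 to 65518 and from 81415 to 79786, with 0 of 10 at 0. The highest gene of that list had a mean normalized count of 42250, 34501 and 54597, so these sums too rest largely on 1 gene. Sox2 was lower at E1 with shRNA-cFos, where 6 of these 10 markers rose. The part of these cell types in the values of Nes, Sox2 and Hopx was not tested. Oligodendrocyte precursor markers rose for 4 of 8 with shRNA-Ctrl, fell for 3 with shRNA-cFos and gave 0 calls with overexpression by DESeq2 in the authors' deposited tables (2 at an unadjusted p under 0.05). Microglial markers rose for 10 of 14, fell for 8 and rose for 1, and rose for 8 in the same order of tables, and mature oligodendrocyte markers fell for 1, 2 and 2 of 12. The median log2 fold changes of the mature oligodendrocyte list were -0.14, -0.15 and -0.33, and all 12 lay below 0 with overexpression (highest -0.20). Interneuron markers rose for 7 and 5 of 11 at E1 and rose for 1 and fell for 1 with overexpression. Markers of pyramidal and mossy cells rose for 1 and fell for 1 of 14, rose for 6 and fell for 1 of 13, and fell for 2 of 14 in the same order. Lct, which fell with shRNA-Ctrl and with overexpression, stands both in this list and in that of mature granule neurons. Cajal-Retzius markers rose for 2 of 8, rose for 1 of 6, and rose for 1 and fell for 3 of 8.

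Genes most like each marker were sought by the Euclidean distance over the 3 log2 fold changes among the 14341 genes, for the 5 markers called in at least 2 tables. For Sox11 they were Scg2, the granin secretogranin II (distance 0.10, with 1.31, 1.18 and 0.74 in the authors' deposited tables), and Nefm, the medium neurofilament (0.18). For Neurod1 they were Tdp2 (0.07) and Arih2 (0.07), for Sox2 Gldc, an enzyme of glycine cleavage (0.05), and Ppfibp2 (0.06). For Nes they were Gm10432 (0.15) and Mycn (0.15), and for Sox4 Chmp1b (0.02) and Zfp202 (0.02). Distances are in log2 units and rest on 3 values per gene.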

How the data were processed

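RNA-seq of dentate gyrus in 18 libraries was used as the authors' 3 tables of comparisons. The submitters' processing notes name TopHat2, DESeq2 and build mm9 without versions. For annotation, counting and strand setting: not given in the sources used here. The deposited mean normalized count, per the file headers a DESeq2 base mean, is a signal averaged over the libraries compared. The authors' log2 fold change and its standard error are on the log2 scale, and the deposited Wald score is their ratio. The deposited p-value matches a 2-sided normal test on this score, and comes with Benjamini-Hochberg adjustment over genes above a mean count minimum. There are 0 columns of values per library, so no fit per library, replicate block or leave-one-out could be run, and the authors' own tests stand in for the planned fit.

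The fold changes were shrunken toward 0. A normal prior of standard deviation 0.59, 0.53 and 0.41 was read from the largest standard error (shRNA-Ctrl, shRNA-cFos and overexpression) and removed algebraically. Group levels were computed from that fold and the mean normalized count; values with a standard error above 90% of the largest (Neurog2 in all tables, Eomes with shRNA-cFos and overexpression, Fos with overexpression) are uncertain. Differences of log2 fold changes were divided by their combined standard error (squares summed, then the root) for a 2-sided normal test, adjusted over all genes tested in both tables, after a check on simulated data. That check drew normal values with the deposited standard errors taken as true, so it cannot test those errors or the effect of the shrinkage. Python 3.11.15, pandas 2.3.3, numpy 2.4.6 and scipy 1.17.1 were used. For overexpression, 27 symbols had become spreadsheet dates and were left out.

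Promoter sequences are from RefSeq (GRCm38.p6), and all 9 markers matched by symbol. Gene structure is from GENCODE M21. No other coordinates are printed, as the authors' build was mm9. All 9 markers were named in each comparison, with up to 4 called genes of largest change per list and the 2 most alike genes per marker called in at least 2 tables. The markers and the 18 other lists were chosen with earlier results of these data known. With 3 animals a group, p-values set a change against the authors' standard errors, and the spread of a marker between animals could not be seen.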

Additional observations from a re-analysis of the deposited data

Results flagged for a closer look

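The E1 response of Sox2 differed between the hairpins, by -0.37 ± 0.14 on the log2 scale between the authors' deposited tables (normal test, Benjamini-Hochberg adjusted p = 0.047), with 0.02 ± 0.11 with shRNA-Ctrl and -0.35 ± 0.10 with shRNA-cFos. It was singled out because a test of the difference itself passed for this marker and for none of the other 8. The call sits at the threshold. It was lost with an adjustment over every gene with a p (normal test, adjusted p = 0.061) and with centring on the median gene (0.054). As 23.8% of 14386 tested genes passed, the count of markers lies below the share of all genes. On the common scale of the hairpin groups Sox2 stood at 805 and 986 at E0 with shRNA-Ctrl and shRNA-cFos. At E1 it stood at 814 and 766, with no error for these levels. No value per animal is at hand, so the number of animals that show the direction is not analysed here, and no animal could be tested as an outlier.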

How the results depend on the processing

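No paired analysis was possible because the tables hold no values per library; leaving out replicates and other count models could not be run for the same reason. With a fold of at least 1.5 added, the markers called numbered 2 in place of 4 (shRNA-Ctrl), 3 in place of 5 (shRNA-cFos) and 1 in place of 3 (overexpression). For the difference between E1 responses, 1 marker (Sox2) became 0 with that minimum, with an adjusted p under 0.01, with an adjustment over every gene with a p, and with centring on the median gene. It was 1 at an unadjusted p under 0.05. For the added differences of overexpression from the E1 response with shRNA-Ctrl (4) and with shRNA-cFos (3), an adjusted p under 0.01 or the fold minimum left 1 each. The called direction of a marker reversed under none of these alternatives, which cannot test the animals. With means of at least 50 Eomes and Neurog2 gave no value in at least 1 table. The fold minimum left 61.4%, 53.9% and 76.7% of all called genes higher in the 3 tables, in place of 51.0%, 58.2% and 54.8%. For the difference between E1 responses it left 43.6% of called genes higher in place of 54.0%. The number of all genes called fell with it to 1660, 1077, 615 and 1708 in these 4, and to 1607 and 2032 in the added differences (3152 and 3776 before), and with an adjusted p under 0.01 to 2622 in place of 4039 (shRNA-cFos), 1366 in place of 2052 (overexpression) and 2202 in place of 3426 (the difference) and 2016 in place of 3152 (overexpression against shRNA-Ctrl).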

Other observations

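Notch and BMP signals act on neural stem cells, and their genes were counted beside the 33.0%, 28.1% and 13.0% of all tested genes called (shRNA-Ctrl, shRNA-cFos, overexpression). No list here is read as a pathway result, since most counts lie near or below that share. Of 22 Notch pathway genes, 5 rose and 2 fell at E1 with shRNA-Ctrl, 3 rose with shRNA-cFos, and 1 rose and 2 fell with overexpression in the authors' deposited tables. Numbl, a Numb relative that counters Notch, had log2 fold changes of 0.79 ± 0.10 and 1.37 ± 0.09 at E1, and Lfng, which modifies Notch receptors, 0.61 ± 0.10 and 0.67 ± 0.13 in the authors' deposited tables. Hes5, the Notch target of neural stem cells, had -0.55 ± 0.17 with overexpression in the authors' deposited table. Of 19 BMP and Id genes, 4 rose and 3 fell, 5 rose and 1 fell, and 1 rose and 1 fell in the 3 authors' deposited tables. The inhibitory Smad gene Smad7 had 2.73 ± 0.10 and 2.09 ± 0.11 at E1 and -0.50 ± 0.11 with overexpression in the authors' deposited tables.

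Relatives of the markers were counted as well, beside the same 33.0%, 28.1% and 13.0% of all tested genes called. Of 13 other Sox genes, 1 rose and 2 fell, 1 rose and 3 fell, and 1 rose and 2 fell in the 3 authors' deposited tables. Sox12, the remaining SoxC factor, had -0.96 ± 0.11 and -0.34 ± 0.14 at E1 in the authors' deposited tables, on the side of Sox4 and not of Sox11. Of the other proneural bHLH genes and partners, 0 of 13 rose and 3 fell with shRNA-Ctrl, 3 of 12 rose and 3 fell under shRNA-cFos, and 0 of 14 rose and 3 fell with overexpression in the authors' deposited tables. Neurod2, a relative of Neurod1 in mature neurons, had -0.59 ± 0.12 under shRNA-Ctrl and 0.52 ± 0.08 under shRNA-cFos by the authors' deposited tables, where Neurod1 rose in each.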
